A study of Mus musculus with 2 samples.

Results

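The Forkhead box (Fox) genes encode transcription factors that share a DNA-binding forkhead domain and are grouped into lettered subfamilies. They were examined in a map of H3K27me3, the trimethylation of histone H3 at lysine 27, in mouse sciatic nerve. Members were all mouse protein-coding genes whose symbol was Fox, a letter from a to s and a number, which gave 44 of 21887 protein-coding genes, in 19 subfamilies. A gene was counted as marked when at least 1 bp of a deposited H3K27me3 peak overlapped the gene or the 2 kb on either side of it. Male C57/BL6 mice, 8 weeks old, gave the nerve for both libraries of the series, 1 from the ChIP and 1 from its input, and the labels name no treatment. There were no replicates, so every value describes this 1 preparation and no difference was tested. The labels mention no sorting of cells, and a peak does not tell which cells of the nerve carried the mark.

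H3K27me3 is deposited by Polycomb repressive complex 2 and is found at genes that are kept off, above all at regulators of embryonic lineages outside the tissue where they act. The Fox family spans both kinds of gene. Foxa, Foxc, Foxd and Foxf members direct the formation of particular organs, whereas Foxo, Foxk and Foxm1 serve metabolism and the cell cycle in many cell types. Peripheral nerve consists largely of Schwann cells, which come from the neural crest, with fibroblasts, perineurial cells, vessels and resident macrophages.

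Of the 44 Fox genes, 24 were marked (54.5%, exact 95% interval 38.8 to 69.6). By the same rule 10.5% of all protein-coding genes were. Marking differed between subfamilies, though not all were uniform. In subfamilies A to F with L and Q, a grouping made after the values were seen, 17 of 18 genes were marked, with 2859 reads in their peaks. In 10 further subfamilies 6 of 25 were marked, with 269 reads. Since the marks were known when these groups were formed, their contrast is a description only. Every member was marked in Foxa, Foxb, Foxc, Foxe, Foxf, Foxl and Foxq, none in 5 subfamilies (Foxh, Foxk, Foxm, Foxr and Foxs), and 6 were split (Foxd, Foxi, Foxj, Foxn, Foxo and Foxp).

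The 250 bases before the first transcribed base are shown for 5 members to display the contrast in the data. Foxl2, of the ovary, had this stretch entirely under a broad peak, and Foxc1, of the eye and vessels, had it under a narrow peak. Foxd3, of the neural crest, was marked inside the gene but not in this stretch. Foxo3, a target of insulin signalling, and Foxi1, of the inner ear and kidney, were unmarked. Positions on GRCm38.p6, the build also called mm10, are chr9:98955357-98955606 (plus strand), chr13:31806396-31806645 (plus), chr4:99656049-99656298 (plus), chr10:42276696-42276945 (minus) and chr11:34208090-34208339 (minus). Sequences are from RefSeq, written 5′ to 3′ on the strand of the gene, with each CG dinucleotide in capitals.
Foxl2: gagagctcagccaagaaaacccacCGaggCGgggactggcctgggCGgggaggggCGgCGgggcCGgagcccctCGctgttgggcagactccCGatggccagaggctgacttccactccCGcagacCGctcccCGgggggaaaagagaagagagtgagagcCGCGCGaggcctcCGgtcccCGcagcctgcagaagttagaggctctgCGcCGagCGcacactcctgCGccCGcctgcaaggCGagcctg
Foxc1: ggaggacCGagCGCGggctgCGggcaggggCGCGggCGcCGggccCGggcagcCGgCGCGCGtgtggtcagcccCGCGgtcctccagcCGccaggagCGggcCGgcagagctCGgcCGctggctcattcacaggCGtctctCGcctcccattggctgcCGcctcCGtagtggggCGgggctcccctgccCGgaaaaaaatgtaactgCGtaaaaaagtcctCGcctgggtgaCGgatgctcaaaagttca
Foxd3: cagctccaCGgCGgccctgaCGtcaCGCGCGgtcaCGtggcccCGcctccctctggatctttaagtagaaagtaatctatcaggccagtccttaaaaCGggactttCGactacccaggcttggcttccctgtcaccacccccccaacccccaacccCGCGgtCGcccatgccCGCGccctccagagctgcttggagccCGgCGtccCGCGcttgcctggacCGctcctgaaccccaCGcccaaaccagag
Foxo3: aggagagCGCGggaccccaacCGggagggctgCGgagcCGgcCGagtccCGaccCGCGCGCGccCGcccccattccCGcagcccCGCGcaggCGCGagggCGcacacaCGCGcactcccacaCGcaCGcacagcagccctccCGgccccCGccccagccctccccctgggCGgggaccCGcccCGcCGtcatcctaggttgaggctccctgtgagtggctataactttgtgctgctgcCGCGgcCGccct
Foxi1: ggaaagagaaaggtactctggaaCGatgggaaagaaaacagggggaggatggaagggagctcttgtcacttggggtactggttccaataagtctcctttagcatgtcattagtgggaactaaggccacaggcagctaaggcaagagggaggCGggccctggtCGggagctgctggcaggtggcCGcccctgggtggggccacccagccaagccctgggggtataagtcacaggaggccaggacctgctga
The stretch held 22 CG dinucleotides for Foxl2, 29 for Foxc1, 21 for Foxd3, 31 for Foxo3 and 4 for Foxi1. The CG-rich stretch of Foxo3 was thus free of peaks, as was that of Foxd3, while those of Foxl2 and Foxc1 lay under peaks.

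**Figure D1:**
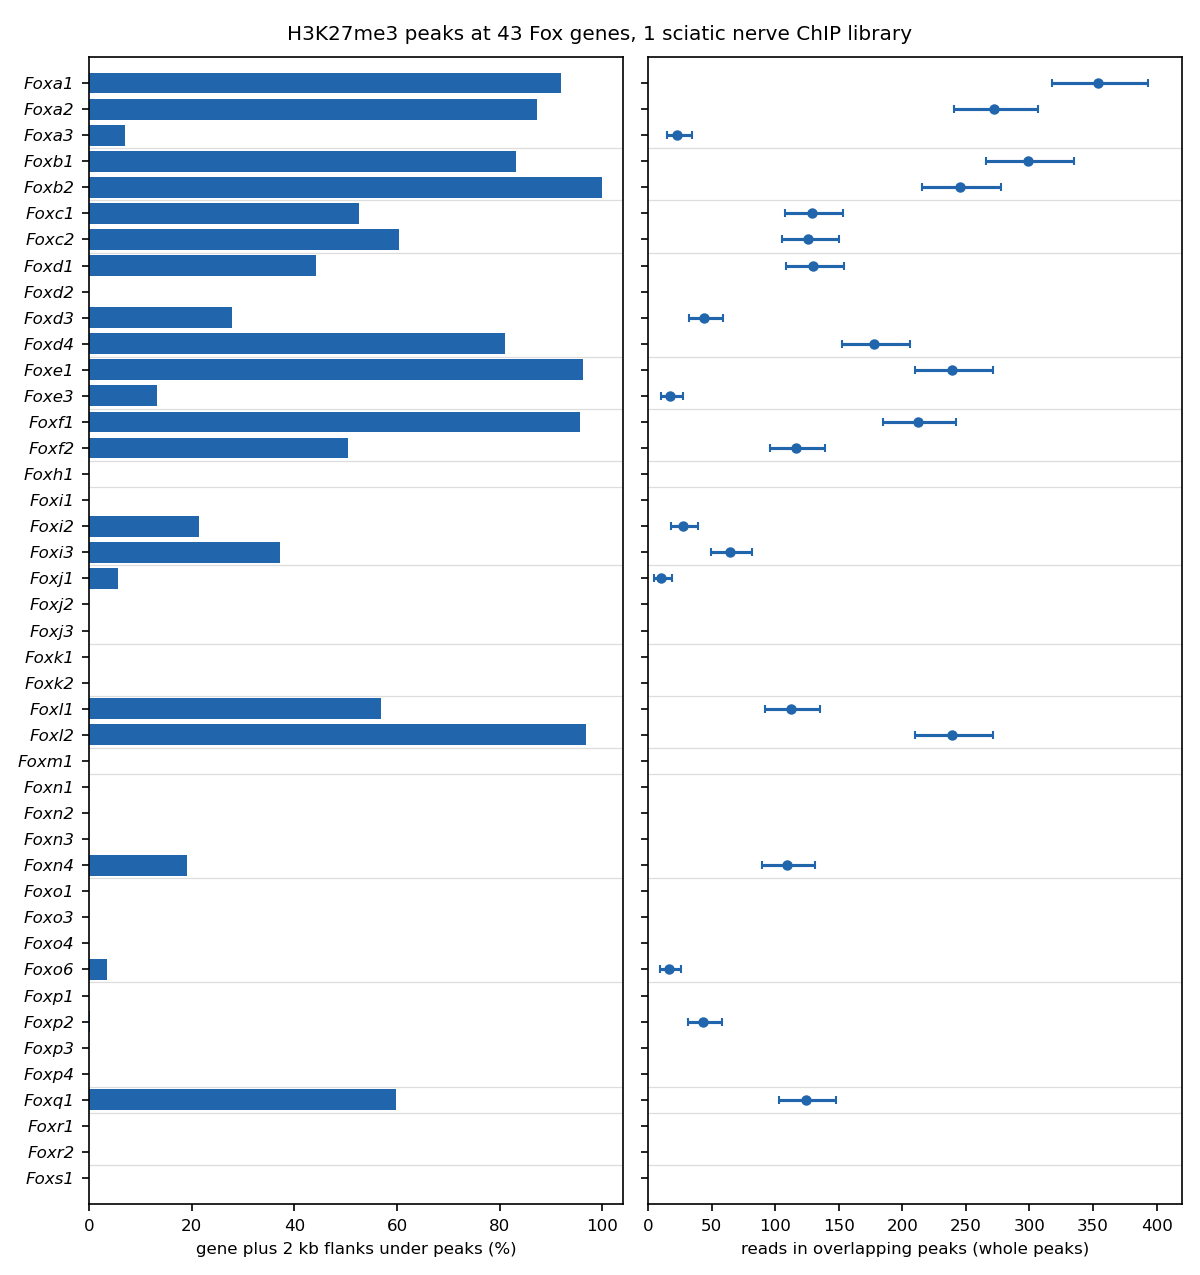
Left, the share of each of 43 Fox genes with its 2 kb flanks that lay under peaks, in percent. Right, reads in the peaks that overlap it, counting whole peaks, with exact 95% Poisson intervals as bars, and members without a peak left blank. Coverage reached 100% at Foxb2 and was 0 at 20 members, and thin grey lines separate the subfamilies.

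The peaks over Fox genes were wider and held more reads than the usual peak of this library. The comparison is with all peaks, wherever they lie, and not with those over other genes. A wide peak is also more likely to overlap a gene window, so picking peaks by overlap favours width. The authors' score per peak came in whole multiples of 1 step and was read as a number of reads. The list held 6018 peaks with a median width of 643 bp and a median of 14 reads, the lowest being 10. The 43 peaks over Fox genes had a median width of 1776 bp (500 to 10624) and a median of 44 reads (10 to 294). Among them 9.30% were 500 bp wide, the minimum, against 41.6% of all peaks, and 18.6% exceeded 5 kb, against 3.39%. Their read density differed less, with a median of 23.8 reads per kb (17.4 to 33.7) against 21.0 over all peaks. No peak was shared between 2 Fox genes, and 4 of the 43 also overlapped another protein-coding gene or its flanks. For the weakest peaks, of 10 reads, the exact Poisson 95% limits are 4.80 and 18.4 reads. All intervals cover counting error only.

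Members carried from 1 to 4 peaks, with 11 members holding 1 peak, 9 holding 2 and 4 holding 3 or more. At least 50% of the gene with its flanks was covered at 14 of the 44 members (31.8%, 18.6 to 47.6), a level reached by 0.795% of all protein-coding genes. The share covered depends on length, and this comparison was not matched for it. The median length was 5193.5 bp for Fox genes and 17169 bp for all protein-coding genes. Foxa2, Foxb2, Foxe1, Foxf1, Foxl2 and Foxq1 each lay entirely inside 1 peak, which ran from 3586 bp at Foxq1 to 9775 bp at Foxa2.

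The Foxa genes encode pioneer factors that open chromatin in the endoderm and liver. Foxa1 had 354 reads in 2 peaks (318 to 393), the most of any member, and 91.9% of the gene with its flanks was covered. Its main peak was 10624 bp wide (chromosome 12, 57540753 to 57551376). Foxa2 had 272 reads in 2 peaks and 87.2% coverage. Foxa3, the third member and a liver factor, stood apart, with 23 reads in 2 peaks of 500 bp each and 7.01% coverage. One of the Foxa3 peaks, with 12 reads, lay over the gene start and also within 2 kb of the neighbouring gene Sympk. All 3 paralogs were therefore marked, but the counting intervals of Foxa3 (14.6 to 34.5 reads) and Foxa2 (241 to 306) lay far apart.

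The Foxb genes act in the developing neural tube and brain. Foxb1 had 299 reads in 3 peaks (88, 14 and 197 reads), covering 83.2% of the gene and flanks. Foxb2 and both its flanks fell within 1 peak, 9744 bp wide and holding 245 reads (chromosome 19, 16870277 to 16880020). Both Foxb genes were thus covered over most of their length.

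Foxc1 and Foxc2, regulators of eye, heart and vessel mesenchyme, carried rows of narrower peaks with gaps between them. Foxc1 had 4 peaks of 38, 20, 35 and 36 reads, and 52.5% of the gene with its flanks was covered. Foxc2 had 3 peaks of 35, 54 and 37 reads, and 60.4% was covered. Their totals, 129 reads (108 to 153) and 126 reads (105 to 150), differed by less than counting error.

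The Foxd genes ranged widely. Foxd4 had 2 peaks of 89 reads each and 81.0% coverage. Foxd1, of the kidney stroma and retina, had 4 peaks of 57, 34, 17 and 22 reads and 44.2% coverage. Foxd3, which specifies neural crest and so belongs to the lineage from which Schwann cells arise, had 44 reads (32.0 to 59.1) in a single peak of 1776 bp (chromosome 4, 99656700 to 99658475). That peak covered 74.8% of the gene and began 401 bp after the gene start. Counting peaks merged within 5 kb, Foxd3 lay in a domain of 13445 bp. Foxd2 was unmarked. Its nearest peak lay 2875 bp from the gene, beyond its 3′ end, and Foxd2 was counted with flanks of 5 kb.

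Foxe1, which is needed for thyroid formation, had 239 reads in 1 peak of 9575 bp (chromosome 4, 46341877 to 46351451). Foxe3, a lens regulator, had 17 reads (9.90 to 27.2) in 1 peak of 743 bp over its start. Foxl2, which maintains ovarian granulosa cells, also had 239 reads, in 1 peak of 8801 bp (chromosome 9, 98951112 to 98959912). The 2 Foxe genes thus differed in coverage, at 96.2% for Foxe1 and 13.2% for Foxe3.

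In 2 clusters lie 6 of the Fox genes, among them regulators of gut, lung and vessel mesenchyme, and all 6 were marked. On chromosome 8 (121082386 to 121132644) 8 peaks with 498 reads covered 41.5% of the 50259 bp from Foxf1 to Foxl1. The whole of Foxf1 was spanned by an 8960 bp peak holding 212 reads (184 to 243). Foxl1 had 2 peaks of 44 and 68 reads and 56.8% coverage, and Foxc2 lies between Foxf1 and Foxl1. Mthfsd, the gene between Foxf1 and Foxc2, had peaks over 7.40% of its body. On chromosome 13 (31556170 to 31812635) 16 peaks with 626 reads covered 9.68% of the 256466 bp from Foxq1 to Foxc1. Foxq1, of hair and stomach, had 124 reads in 2 peaks and 59.8% coverage. Foxf2 had 116 reads in 2 peaks and 50.5% coverage. The peaks of this longer cluster lay in 3 groups at the 3 genes, and no peak lay in the 157.2 kb between the last one near Foxf2 and the first one near Foxc1. The Foxd2 and Foxe3 pair on chromosome 4 differed, with 1 peak of 17 reads over 3.12% of 23788 bp.

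**Figure D2:**
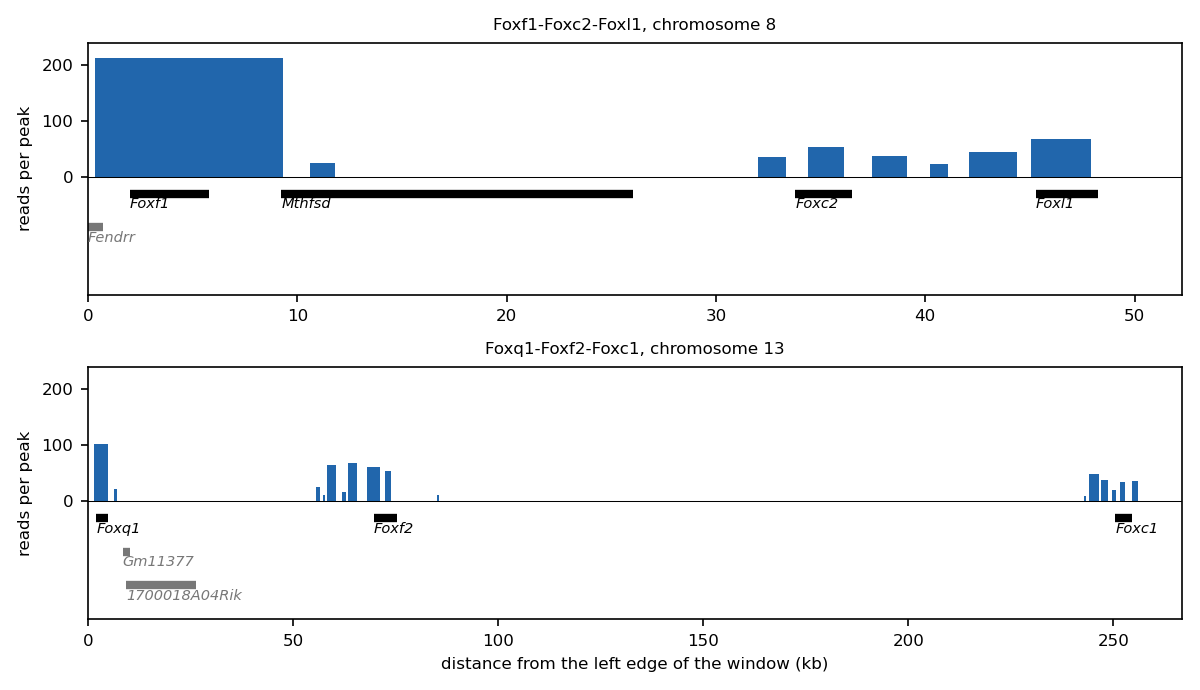
Peaks as blue bars, with height in reads and width to scale, along the 2 Fox clusters. The horizontal axis is distance in kb, protein-coding genes are black and long non-coding RNA genes grey. The tallest bar is the Foxf1 peak of 212 reads, and each cluster has peaks at all 3 of its Fox genes.

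The Foxi and Foxn subfamilies were split. Foxi3, of ectodermal placodes, had 64 reads in 2 peaks and 37.2% coverage, and Foxi2 had 27 reads in 1 peak and 21.4%. Foxi1 had no peak within 10661 bp. Foxn4, which specifies retinal and spinal interneurons, had 109 reads in 2 peaks, 99 of them in a peak of 4114 bp at the gene start. Foxn1, of the thymus, and Foxn2 and Foxn3 were unmarked.

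In the Foxj, Foxo and Foxp subfamilies 1 member each was marked, with coverage of 5.68% at Foxj1, 3.40% at Foxo6 and 0.171% at Foxp2. Foxj1, the master regulator of motile cilia, had 10 reads in 1 peak of 500 bp, which also lay within 2 kb of Rnf157, and Foxj2 and Foxj3 had none. Foxo6, which is expressed mainly in the brain, had 16 reads in 1 peak of 823 bp, while Foxo1, Foxo3 and Foxo4 had none. Foxp2, a regulator of brain circuits for vocal learning, had 43 reads in a peak of 2354 bp that lay wholly outside the gene, 1069 bp from its end at the lower coordinate. Foxp1, Foxp3 and Foxp4 had none. Foxp2 was therefore no longer counted without flanks or with flanks of 1 kb. Foxa3, Foxe3, Foxj1 and Foxo6, with 10 to 23 reads each, were no longer counted when only peaks of at least 20 reads were used, which left 20 members (45.5%) against 5.46% of all protein-coding genes.

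The 20 unmarked members were mostly far from any peak. Besides Foxd2 and Foxi1 they were Foxh1, a partner of Smad proteins in Nodal signalling, Foxj2, Foxj3, Foxk1, Foxk2, Foxm1, which drives mitotic genes, Foxn1, Foxn2, Foxn3, Foxo1, Foxo3, Foxo4, Foxp1, Foxp3, Foxp4, Foxr1, Foxr2 and Foxs1. The median distance to the nearest peak was 217159 bp. It was 102866 bp over the 17 on autosomes. The closest after Foxd2 was Foxs1, of neural crest-derived sensory neurons, at 8672 bp, and the farthest on an autosome was Foxo1 at 1306327 bp. Foxo4, Foxp3 and Foxr2 lie on the X chromosome, which had 31 peaks in all, and none of the 3 was marked.

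Marked members were shorter genes. Their median length was 3512.5 bp (1515 to 540629), against 27195 bp (1311 to 597405) for the unmarked ones and 17169 bp for all protein-coding genes. Of the 26 members up to 10 kb long, 20 were marked (76.9%, 56.4 to 91.0), where the share of all genes of that length was 8.3%. Of the 18 longer members, 4 were marked (22.2%, 6.41 to 47.6), where the share of all longer genes was 11.8%. The 10 kb limit was set after the values were seen, as was the grouping of subfamilies A to F, L and Q. Among all genes the longer ones were thus marked somewhat more often, whereas among Fox genes the shorter ones were. The 4 longer marked genes were Foxa3, Foxn4, Foxo6 and Foxp2. Subfamily and length overlapped in part, with lengths of 1515 to 10257 bp in subfamilies A to F, L and Q and of 1311 to 597405 bp in the 10 further ones. Among members up to 10 kb long, 16 of 17 were marked in A to F, L and Q, and 3 of 8 in the further subfamilies (Foxi2, Foxi3 and Foxj1). Of the longer members, Foxa3 was the only one in A to F, L and Q, and 3 of 17 were marked in the further subfamilies. The unmarked members up to 10 kb were Foxd2, Foxh1, Foxi1, Foxo4, Foxr1 and Foxs1.

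**Figure D3:**
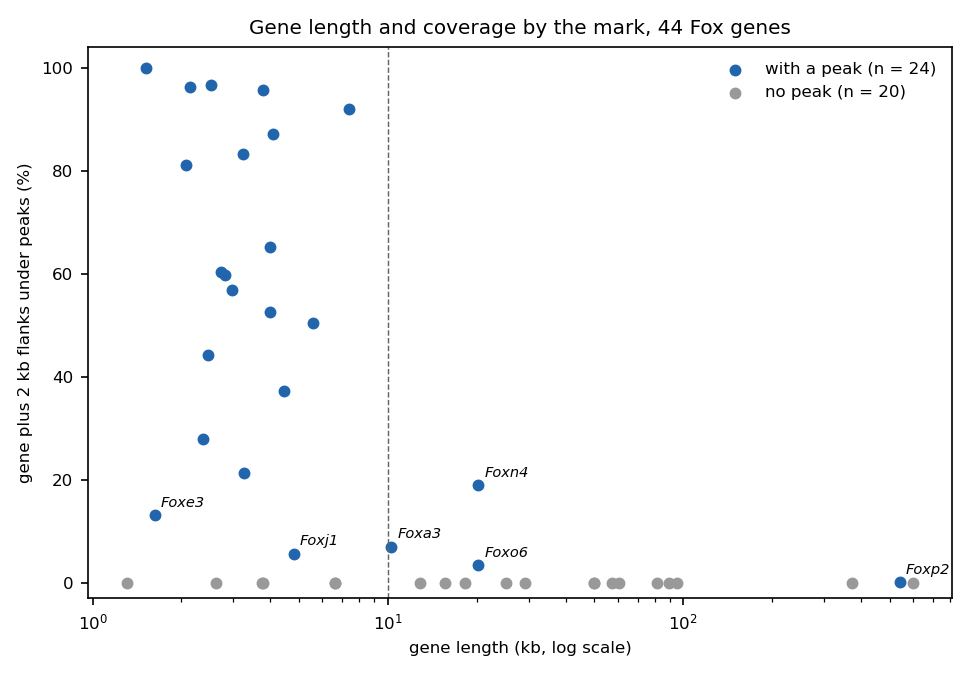
Gene length in kb (log scale) against the share of gene plus flanks under peaks, for 24 marked (blue) and 20 unmarked (grey) Fox genes. Named points are marked members over 9 kb or under 15% coverage. Coverage above 20% occurs only to the left of the dashed line at 10 kb.

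A start position was listed for 28 of the 44 members. Of these, 14 had a peak within 2 kb of a start (50%, 30.6 to 69.4), against 7.31% of the 17492 protein-coding genes with a listed start, and they were the same 14 genes that were marked over the whole span. In 11 of the 14, a 300-base window around a start (250 bases before to 50 after) lay fully under a peak. In Foxa3 78% of it did. In Foxd3 and Foxi2 none of it did, with the peaks beginning 401 and 716 bp into the gene. Averaged over these 14 genes, which had been chosen for a peak within 2 kb of a start, coverage was 82.9% in the first 250 bp of the gene, 78.6% in the 250 bp before it and 48.3% at 1750 to 2000 bp before it.

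**Figure D4:**
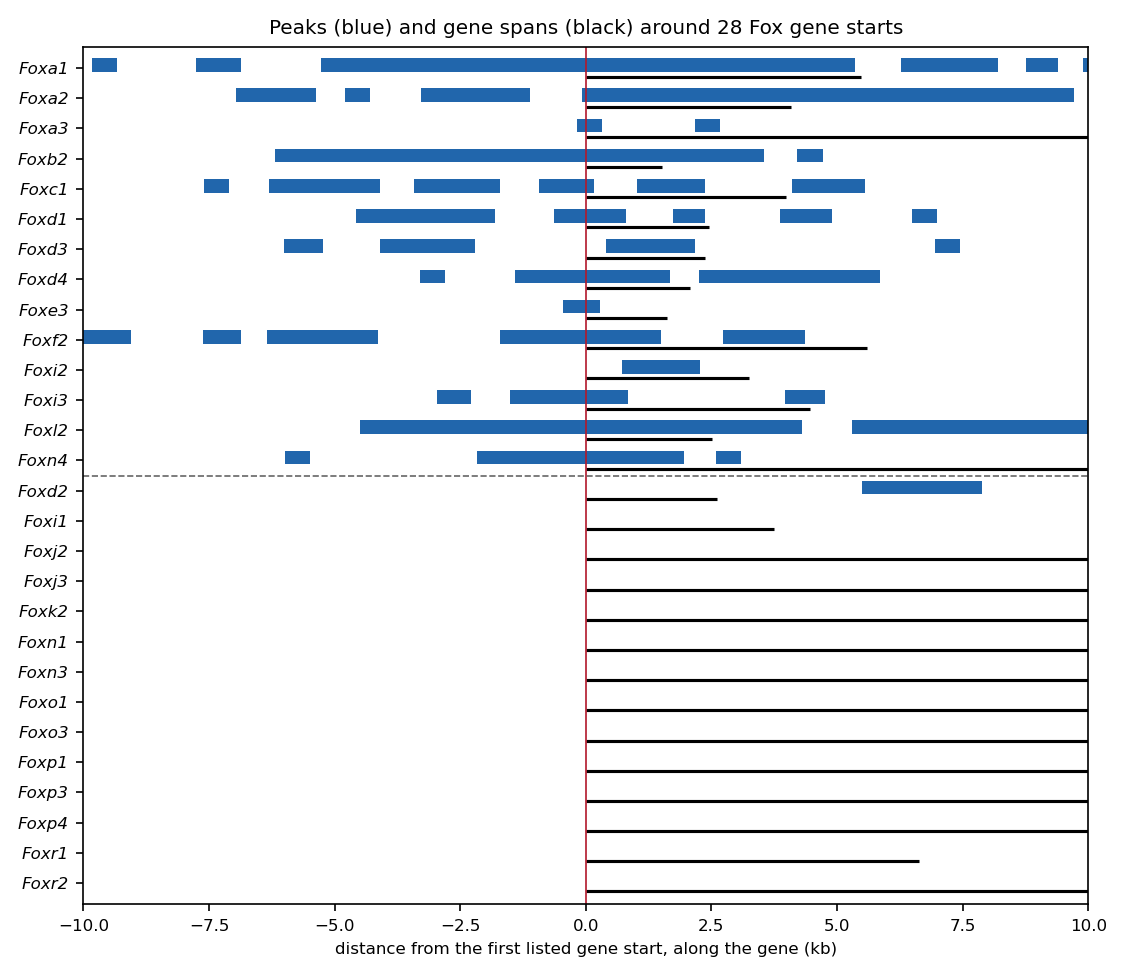
Peaks (blue) and gene spans (black) around the first listed start of 28 Fox genes, in kb along the direction of the gene, marked genes above the dashed line. Of the 14 marked genes only Foxd3 and Foxi2 have no peak at the start, and of the 14 unmarked only Foxd2 has a peak inside the 20 kb shown.

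Base composition at the start overlapped between marked and unmarked members. There were 6 windows with a ratio of observed to expected CG dinucleotides above 1 or a GC content of 75% or more. All belonged to unmarked genes, but both limits lie above the highest values of marked Fox windows (0.943 and 71.3%). The count therefore follows from where the limits were placed. Over all protein-coding genes, windows of marked genes reached a GC content of 89.3% and a ratio of 1.32. This ratio had a median of 0.684 over 16 windows of 14 marked members (0.198 to 0.943) and of 0.619 over 17 windows of 14 unmarked members (0.151 to 1.28). The median over all protein-coding genes was 0.567. With the most CG-rich window of each gene, 11 of 20 members with a ratio of 0.6 or more were marked (55%), where the share of all protein-coding genes in that class was 11.3%. Below 0.6, 3 of 8 members were marked (Foxb2, Foxe3 and Foxi2, 37.5%), where the share of all genes was 8.17%. The 9 unmarked members with a ratio of 0.6 or more were Foxd2, Foxj2, Foxj3, Foxk2, Foxo1, Foxo3, Foxp1, Foxp4 and Foxr1. Foxk2 had the highest ratio, 1.28, and no peak within 102866 bp. A forkhead motif, TGTTTAC on either strand, was found in 1 of the 16 windows of marked members (Foxa1), in 0 of 17 of unmarked ones and in 3.01% of windows of all protein-coding genes.

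**Figure D5:**
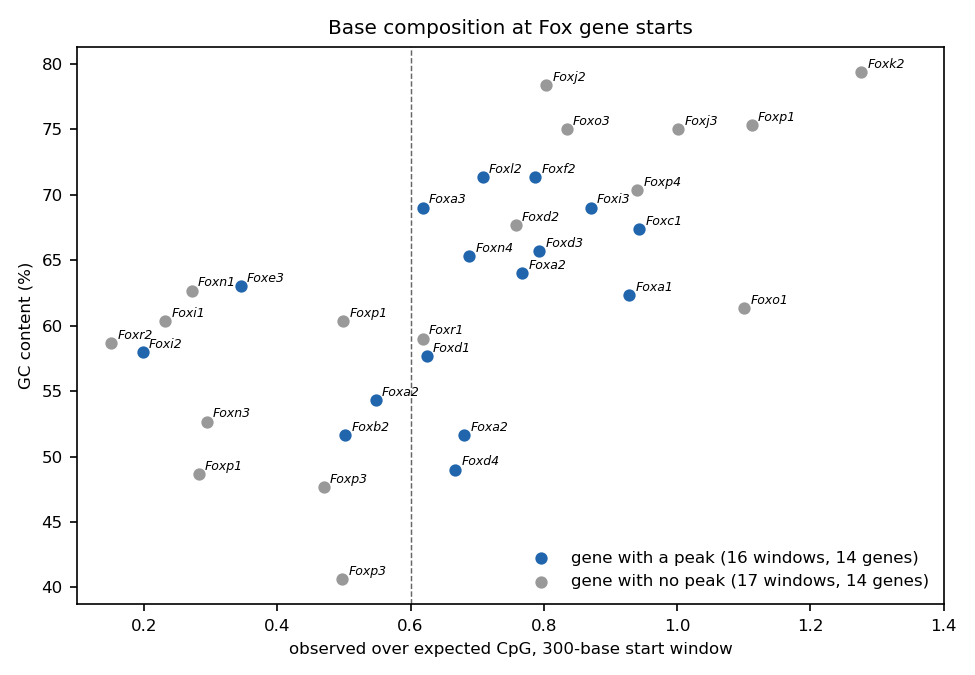
Observed over expected CG dinucleotides against GC content (%) in 300-base windows at the starts of 28 Fox genes, blue for marked and grey for unmarked genes, with a dashed line at 0.6. Both colours occur on both sides of the line. The 6 windows with a ratio above 1 or a GC content of 75% or more all belong to unmarked genes. Both of these limits lie above the highest values of marked Fox windows.

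Genes that act with or downstream of Fox factors were counted in 9 lists, written with earlier results of these data known, beside the 10.5% of all protein-coding genes. Of 12 endoderm partners of the Foxa genes, 11 were marked, among them Pdx1, of the pancreas (216 reads, 89.0% coverage), Nkx2-1, of lung and thyroid (266 reads, 88.6%) and Cdx2, of the intestine (190 reads, 70.7%). Hnf4a had none. Of 12 thymus and thyroid factors, 11 were marked, among them Pax1 (191 reads) and Tbx1 (231 reads). Of 11 hedgehog genes, which act upstream of Foxf and Foxl genes, 6 were marked. They were the 3 ligands Shh (216 reads), Ihh (86 reads) and Dhh (38 reads), and Smo, Gli1 and Gli2 with 11 or 12 reads each.

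Of 12 genes around Foxj1 in multiciliated cells, 6 were marked, including Mcidas (126 reads) and Ccno (78 reads), which switch on that cell type. Of 12 Nodal and TGF-beta partners of Foxh1, Nodal (40 reads), Tdgf1 (30 reads) and Lefty2 (15 reads) were marked. Of 12 corepressors and partners of Fox factors, Bcl11b alone was marked (223 reads). None of the 12 kinases and regulators of Foxo, 12 targets of Foxo or 12 cell cycle partners and targets of Foxm1 was marked, and each count of 0 of 12 allows a share of up to 25% by the limit of 3 counts, or 26.5% by the exact 95% interval.

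Markers of the cells of the nerve were also counted beside the 10.5% of all protein-coding genes. Of 12 Schwann cell markers 4 had a peak (33.3%, 9.92 to 65.1), among them Mbp and Sox10 with 11 reads each and Egr2 with 18. Of 8 markers each, 1 (12.5%) had a peak for fibroblasts and perineurial cells (Pdgfra, 68 reads), for endothelial and mural cells (Rgs5, 12 reads) and for immune cells (Cd3e, 10 reads). RNA was not measured, so the identity of the tissue was not checked beyond this.

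Beside 3 other families of developmental transcription factors, the Fox share was the lowest, with overlapping intervals. Marked members numbered 13 of 19 in Sox (68.4%, 43.4 to 87.4), 9 of 13 in Tbx (69.2%, 38.6 to 90.9) and 9 of 9 in Pax (66.4 to 100). At least 50% of gene and flanks was covered at 31.8% of Fox genes (18.6 to 47.6), 5 of 19 Sox genes (26.3%, 9.15 to 51.2), 1 of 13 Tbx genes (7.69%, 0.195 to 36.0) and 2 of 9 Pax genes (22.2%, 2.81 to 60.01), with overlapping intervals. The median coverage of marked members was 54.6% for Fox, 37.2% for Sox, 20.7% for Tbx and 21.4% for Pax, against 3.71% over all marked protein-coding genes. Median gene lengths over all members, marked or not, were 5193.5, 4794, 21017 and 55049 bp in the same order. The share covered depends on length, and the marked Fox genes alone had a median of 3512.5 bp. Median reads ran the other way for the long families, with 125 for Fox, 99 for Sox, 226 for Tbx and 354 for Pax. None of these differences was tested.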

How the data were processed

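The deposited file is 1 list of H3K27me3 peaks with a score per peak. Per the submitters' processing notes, Bowtie and build mm10 were used. Bowtie's version and the method of peak calling, including whether the input was subtracted, were not given in the sources used here. Their effect on the peaks was not tested. The score that the authors deposited was divided by its step, 2.573, to give reads: 99.9% of scores lay within 0.05 of a whole multiple. What the score was scaled to is not stated, so these reads are a reading of the scores. Peaks in all held 185225 reads, which is not the library's depth. The input was not analysed here.

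Gene spans and starts came from RefSeq tables (GRCm38.p6), which list starts, with strand, for 28 of the 44 Fox genes. Peaks were overlapped with gene spans and 2 kb flanks in Python 3.11.15 with NumPy 2.4.6, pandas 2.3.3 and SciPy 1.17.1, by code checked on simulated intervals. Reads of a gene are those of whole peaks. Shares carry exact Clopper-Pearson 95% intervals and reads exact Poisson intervals. Members, lists and settings were chosen with earlier results of these data known. Full values were given for the members with the most covered bases, for the Foxa, Foxc, Foxd, Foxf, Foxl and Foxq genes and for members of split subfamilies. No test was run, since there is 1 ChIP library. Some genes counted here are not reported by name.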

Additional observations from a re-analysis of the deposited data

How the results depend on the processing

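The count of 24 marked Fox genes ranged from 20 to 26 over flanks of 0, 1, 5 and 10 kb, gene ends only, at least 10% coverage, autosomes only and stricter peak sets, and fell to 14 when at least 50% had to be covered. Subfamilies with a marked member then numbered 9 instead of 14. The median coverage of marked Fox genes was 54.6%. It was 74.8% without flanks, 55.7% with 1 kb, 43.5% with 5 kb and 58.3% with peaks at or above the median score. Reads over Fox genes were 3280 counting whole peaks, 2446 when shared out by overlap and 4253 with 5 kb flanks. The 2302 marked genes among all protein-coding genes fell to 1195 with peaks of at least 20 reads, to 642 at 10% coverage and to 174 at 50%. The counts for starts, for the Sox, Tbx and Pax families and for the partner lists stayed within 1.5 times in the alternatives run for them. Depth limits members with 10 to 23 reads. No paired analysis was possible because the series holds 1 ChIP library.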

Other observations

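Of 15 long non-coding RNA genes within 10 kb of a marked Fox gene, 8 had a peak in the gene body (53.3%). Near unmarked Fox genes 1 of 12 did (8.33%), and 5.98% of all 12727 long non-coding RNA genes did. The difference was not tested. Of the 8, 6 share a peak with the Fox gene, so the first share largely recounts the peaks by which the Fox genes were called marked. Of the 43 peaks over Fox genes, 6 overlapped a long non-coding RNA gene. Fendrr, beside Foxf1, had 3 peaks with 479 reads over 36.7% of its body, counting whole peaks. Of these reads, 212 were in the peak that spans Foxf1. Foxl2os, beside Foxl2, had 68.2% of its body under the peak of 239 reads that also covers Foxl2. B230323A14Rik beside Foxb1 had 16.6% of its body covered (7 peaks, 342 reads). Coverage was 10.6% for 9030622O22Rik beside Foxa2 (4 peaks, 374 reads) and 9.68% for Gm12446 beside Foxe1 (2 peaks, 307 reads). These totals include whole peaks shared with the Fox gene, of 197 reads for Foxb1, 218 for Foxa2 and 239 for Foxe1. Foxo6os, beside Foxo6, and Gm11377 and 1700018A04Rik, near Foxq1, were among the 7 with no peak. So was Foxd2os, which lies between the unmarked Foxd2 and the marked Foxe3. It was counted near a marked gene only.

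The nearest other protein-coding genes on each side were counted beside the 10.5% of all protein-coding genes that were marked. Of 40 such neighbours of marked Fox genes, 9 were marked (22.5%), among them Ttc6, Sympk, Mthfsd and Rnf157, which share a peak with a Fox gene. This share therefore partly recounts the peaks by which the Fox genes were called marked. Of 39 neighbours of unmarked Fox genes, 4 were marked (10.3%). These genes were not chosen beforehand and the difference was not tested.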
